A study of Mus musculus with 4 samples.

Results

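Integrins are cell-surface receptors made of 1 alpha and 1 beta chain, through which lymphocytes bind other cells and the extracellular matrix. This account follows 10 integrin genes (*Itga1*, *Itga2*, *Itga4*, *Itgae*, *Itgal*, *Itgav*, *Itgb1*, *Itgb2*, *Itgb3* and *Itgb7*) in intestinal natural killer T (NKT) cells, a T cell type whose receptor sees lipids on the CD1d molecule. The genes, 6 for alpha and 4 for beta chains, were chosen by symbol, and all 10 are among the 25239 genes of the deposited count table. RNA-seq was performed on 4 libraries of invariant NKT cells from the small intestinal lamina propria (SI-LP) of wild-type mice, whose genotype is labeled C57BL/6Jax. The sample titles mark replicates 3 and 4 as First and replicates 1 and 2 as Second, here called the first and second experiment. What First and Second stand for is not stated in the titles. The names of their count columns differ in prefix and lane as well. The study used young adult mice of both sexes, and the paper does not give the sex of those behind these libraries. The animals had received a nanobody against ARTC2 shortly before harvest. The cells were sorted as living TCR-β+ CD1d-tetramer+ cells without B220, CD11b, CD11c or CD8. All 4 libraries are of this 1 condition, so the values describe levels and their spread between replicates, and NKT cells of lymphoid tissues are not analysed here. The labels number the WT mice but say no more about what separates the replicates, so the spread may be partly technical.

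In the gut, integrins are known for homing, adhesion and retention. The α4β7 receptor binds MAdCAM-1 on mucosal vessels, αEβ7 (CD103) binds E-cadherin on epithelial cells, and LFA-1, which is αLβ2, binds ICAM-1 on other cells. The α1β1 and α2β1 receptors bind collagens, α4β1 binds VCAM-1 and fibronectin, and αV pairs with β1 or β3 to bind vitronectin and other matrix proteins. A chain can have several partners, so a transcript level does not give the amount of a receptor.

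Total counts per library were between 3882803 and 8732858, and the ribosomal RNA precursor *Rn45s* took 7.36% to 28.1% of them. Levels are given as CPM, counts rescaled by the TMM method so that libraries can be compared, or as TPM. The latter divides counts by the exon length deposited with them so that genes can be compared, and has no TMM factor. Where a gene is compared between libraries in TPM, the share of *Rn45s* in each library enters its value. The 7 T cell markers took 0.122% to 0.283% of the counts and were detected in every library, and the 4 NK cell markers had 0 counts in all libraries, against which 3 counts, the smallest level considered, would be 0.289 to 0.757 CPM. *Cd8a* and *Cd8b1* had at most 13 counts together. The libraries differed in transcripts of other cells. Markers of epithelial cells (15 genes) took 0.0812% (95% Wilson interval 0.0792% to 0.0833%) of the counts in replicate 1, 0.858% (0.852% to 0.864%) in replicate 2, 0.0168% (0.0157% to 0.0179%) in replicate 3 and 2.83% (2.82% to 2.85%) in replicate 4. Within each experiment, 1 library thus held far more epithelial transcript, and 13 of the 15 genes were higher in replicates 2 and 4 than in the other library of their experiment, while none of the 15 was at 0 in all libraries. These intervals and the floor of 3 counts cover counting error only.

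All 10 genes passed the filter of at least 10 counts in at least 2 libraries, as did 11689 genes in all, and 9 of the 10 had over 3 counts in every library. By mean TPM, 4 of the 10 (*Itgb2*, *Itgal*, *Itgb3* and *Itgb1*) lay at or above the 90th percentile of the tested genes and 9 lay above the median. *Itgae* was the exception, at percentile 1.63. The plot of TPM by library shows the order and the distance between replicates.

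**Figure D1:**
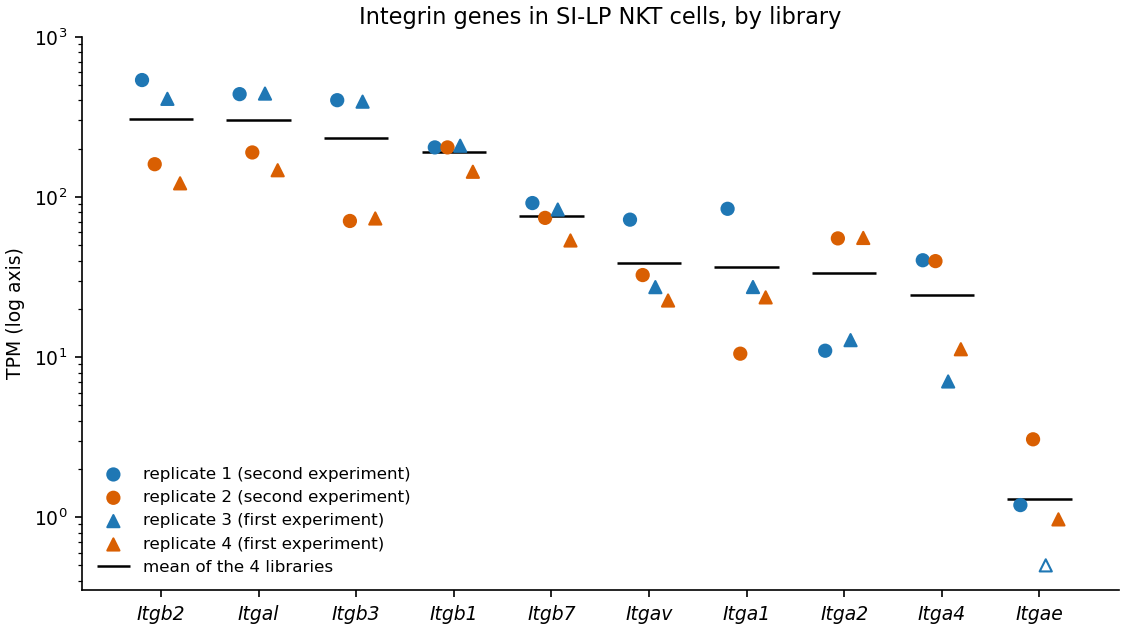
TPM (log axis) of the 10 integrin genes in each SI-LP NKT cell library. Blue marks are replicates 1 and 3, orange marks replicates 2 and 4, circles the second and triangles the first experiment, bars the mean of the 4 libraries, and the open triangle stands for a level of 0, drawn at 0.5 because a log axis has no 0. *Itgb2*, *Itgal* and *Itgb3* lie higher in both blue libraries than in both orange ones, *Itga2* lies lower in them, and *Itgb1* and *Itgb7* vary little.

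The chains of LFA-1 were the most abundant of the 10 by mean TPM. *Itgal* encodes the αL chain (CD11a), and its transcript was at 438, 189, 442 and 147 TPM in replicates 1 to 4, with a mean of 304 ± 158 TPM (SD, n = 4). *Itgb2* encodes the β2 chain (CD18) and was at 537, 160, 409 and 122 TPM, with a mean of 307 ± 199 TPM. Both genes were at their lower levels in replicates 2 and 4, and neither mean stood above the other by more than its spread, since the log2 ratio of *Itgal* to *Itgb2* was 0.08 ± 0.26. The αL transcript was the higher in 3 of 4 libraries. Without the length correction the log2 ratio of the counts was 0.92.

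The β3 chain was the third by mean TPM. *Itgb3*, which pairs with αV and, in platelets, with αIIb, was at 402, 70.7, 393 and 73.3 TPM, with a mean of 235 ± 188 TPM. The libraries fell into 2 levels, with replicates 1 and 3 over 5-fold above replicates 2 and 4 of their experiments (776.8 against 133.5 CPM and 929 against 172 CPM). Platelet markers (6 genes) summed to 1, 98, 10 and 34 counts in replicates 1 to 4, against 5578, 1387, 4139 and 682 counts of *Itgb3*, with *Ppbp* and *Treml1* at 0 in all libraries. *Itga2b*, the αIIb chain and one of those 6 genes, had 1, 27, 0 and 0 counts. In replicates 1 and 3, which held the high levels of *Itgb3*, the 6 genes summed to 1 and 10 counts. The part of platelets in the level of *Itgb3* was not tested.

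The αV chain was less abundant than β3. *Itgav* was at 72.1, 32.5, 27.3 and 22.5 TPM, with a mean of 38.6 ± 22.7 TPM and a high value in replicate 1. The transcript was lower than that of *Itgb3* in every library, by a log2 ratio of -2.29 ± 1.18, or 4.88-fold. It was likewise lower than that of *Itgb1* in every library, with a log2 ratio of -2.44 ± 0.64.

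In CPM, though not relative to the T cell markers, the β1 and β7 transcripts varied least of the 9 detected in every library. *Itgb1*, whose product pairs with many alpha chains, was at 204, 204, 209 and 144 TPM, with a mean of 189.9 ± 31.0 TPM. *Itgb7* was at 91.5, 73.9, 83.4 and 53.4 TPM, with a mean of 75.6 ± 16.4 TPM. The highest library stood only 1.46-fold above the lowest for *Itgb1* and 1.57-fold for *Itgb7* in CPM, and 2.70% and 4.35% of the tested genes had a smaller such ratio. Over the 9 integrin genes detected in every library, this ratio ran from 1.46 to 8.23 with a median of 3.64. *Itgb1* was above *Itgb7* in 4 of 4 libraries, by a log2 ratio of 1.34 ± 0.14, the narrowest of the ratios between neighbors in the order.

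The partners of β7 differed widely from it. *Itga4*, which encodes the α4 chain of the gut homing receptor, was at 40.2 and 39.7 TPM in replicates 1 and 2 and at 7.04 and 11.2 TPM in replicates 3 and 4. Its level thus separated the experiments without overlap, and its mean was 24.5 ± 17.9 TPM. On the TPM scale the transcript was below that of *Itgb7* in all 4 libraries, with a log2 ratio of -1.98 ± 1.21, or 3.94-fold, and below that of *Itgb1* with a log2 ratio of -3.32 ± 1.22. The first of these ratios rests on the gene length used, since it was -0.10 for counts without a length and -0.45 with the annotated coding length. The exons of *Itga4* share 166 bases, 1.69% of their length, with *Cerkl* on the opposite strand, and reads were counted without strand, so a few counts may belong to either gene. *Cerkl* had 2, 0, 19 and 0 counts.

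*Itgae*, which encodes the αE chain CD103 and binds E-cadherin once paired with β7, was close to the limit of detection. It had 11 counts in replicate 1 (exact 95% Poisson interval 5.49 to 19.7), 40 in replicate 2 (28.6 to 54.5), 0 in replicate 3 (0 to 3.69) and 6 in replicate 4 (2.20 to 13.1). In the same libraries *Itgb7* had 588, 671, 406 and 230 counts. On the TPM scale *Itgae* was 1.30%, 4.14%, 0% and 1.81% of *Itgb7*, and 3 counts in the library without one would be 0.673 CPM. *Cdh1*, the gene for E-cadherin, had 773, 7738, 40 and 2117 counts. It was higher in replicates 2 and 4, where the epithelial share was larger. There *Itgae* also had more counts than in the other library of the same experiment. *Cd8a* and *Cd8b1* together had 0, 13, 1 and 1 counts in replicates 1 to 4. The part of other cells in the counts of *Itgae* was not tested.

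The collagen receptor chains *Itga1* and *Itga2* had similar means and different patterns. *Itga1* was at 84.2, 10.5, 27.4 and 23.6 TPM, with a mean of 36.4 ± 32.7 TPM, the lowest value being in replicate 2. *Itga2* was at 10.9, 55.1, 12.7 and 55.4 TPM, with a mean of 33.5 ± 25.1 TPM. Replicates 2 and 4 held the high values of *Itga2*, at 128 and 159.9 CPM against 26.04 and 37.02 CPM in replicates 1 and 3. Both transcripts were below that of *Itgb1* in every library, with log2 ratios of -2.77 ± 1.23 for *Itga1* and -2.88 ± 1.46 for *Itga2*. The genes are neighbors on the minus strand of chromosome 13 (GRCm38), with *Itga1* at 114958081 to 115101964, *Itga2* at 114833081 to 114932100 and 25980 bases between them.

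In order of mean TPM the genes were *Itgb2*, *Itgal*, *Itgb3*, *Itgb1*, *Itgb7*, *Itgav*, *Itga1*, *Itga2*, *Itga4* and *Itgae*. Neighbors whose order held in all 4 libraries were *Itgal* over *Itgb3* (log2 ratio 0.68 ± 0.64), *Itgb1* over *Itgb7*, *Itgb7* over *Itgav* (1.10 ± 0.54) and *Itga4* over *Itgae*. Of these, the ranges of the libraries stood apart for *Itgb1* over *Itgb7* and for *Itga4* over *Itgae* only. The order of *Itgb3* and *Itgb1* turned between libraries (-0.15 ± 1.29), with *Itgb3* the higher in replicates 1 and 3, and that of *Itga1* and *Itga2* turned as well (0.11 ± 2.39). *Itgav* and *Itga1* differed by 0.33 ± 0.87, and *Itga2* and *Itga4* by 0.44 ± 1.74, in both cases within the spread. In replicates 1 and 3 alone the first 5 genes kept this order, whereas in replicates 2 and 4 alone *Itgb1* came first and *Itgb3* came behind *Itgal* and *Itgb2*, so the place of *Itgb1* depends on which libraries are used. Without replicate 1 *Itgal* came first, and with annotated coding lengths in place of the deposited ones *Itgb3* came before *Itgal* and *Itgb2*.

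**Figure D2:**
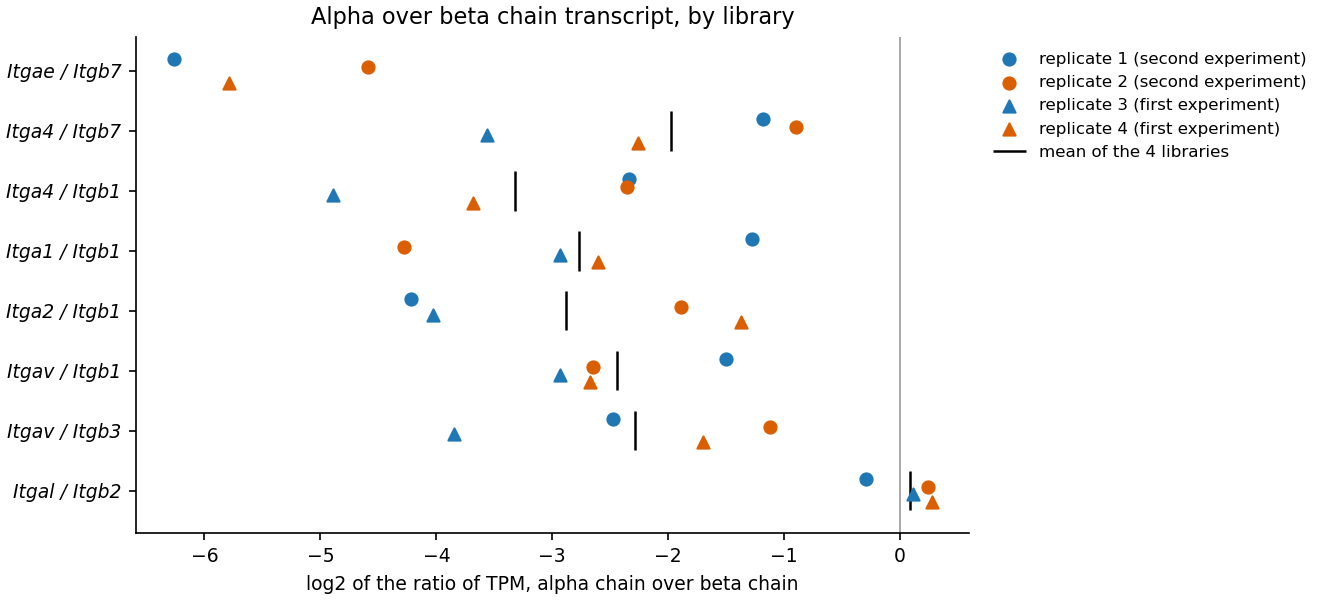
Log2 of the ratio of TPM of each alpha chain to a beta chain it can pair with, by library (blue, replicates 1 and 3; orange, replicates 2 and 4; circles, second experiment; triangles, first experiment; bars, mean of the 4 libraries). Only *Itgal* over *Itgb2* lies around 0, at 0.08 ± 0.26, the other pairs lie below 0 in every library with a value, and with annotated coding lengths *Itga4* over *Itgb7* would lie above 0 in replicates 1 and 2 (0.34 and 0.63), while *Itgae* over *Itgb7* has no value in replicate 3.

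Taken as sums, the partners of β1 among these genes (*Itga1*, *Itga2*, *Itga4* and *Itgav*) reached 1.02, 0.676, 0.357 and 0.785 times the TPM of *Itgb1* in replicates 1 to 4. For β7, *Itga4* and *Itgae* together reached 0.452, 0.578, 0.0844 and 0.227 times the TPM of *Itgb7*. These sums rest on the deposited lengths. With annotated coding lengths, the log2 ratio of *Itga4* to *Itgb7* was 0.34 (replicate 1), 0.63 (replicate 2), -2.04 (replicate 3) and -0.73 (replicate 4), so that *Itga4* was the higher in the second experiment.

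To see whether the levels held between experiments, the second was compared with the first with the quasi-likelihood test of edgeR and adjusted p-values after Benjamini and Hochberg, 2 libraries against 2. None of the 10 genes passed an adjusted p of 0.05, nor did any of the 11689 tested genes (0%), while 248 genes (2.12%) and 1 of the 10 had an unadjusted p under 0.05. The 1 gene was *Itga4*, with a mean of 129.9 CPM in the second and 36.5 CPM in the first experiment (132 and 128 CPM against 28.3 and 44.6 CPM). Its log2 difference was 1.83 ± 0.64 (SE) with a 95% interval of 0.30 to 3.36. In edgeR it had an unadjusted p of 0.0256 and an adjusted p of 0.9997. DESeq2 called 48 genes, none of them among the 9 of the 10 to which it gave an adjusted p. *Itga4* and *Itgae* were the genes of the 10 whose libraries of the second experiment both lay above those of the first. This held for 14.7% of all tested genes. *Itgae* passed the filter only through the second experiment, with 11 and 40 counts against 0 and 6, so the filter favored this order. Its nearest libraries were at 1.53 against 1.51 CPM. Of the 10 genes, 0 lay below without overlap, which held for 14.4% of all tested genes. The other 8 genes had log2 differences between -0.35 and 0.77, none with an unadjusted p below 0.279 by edgeR. These values rest on single libraries, since the difference was -1.56 without replicate 1 and 1.43 without replicate 2 for *Itga1*, -1.999 without replicate 1 and 1.39 without replicate 3 for *Itgb3*, and -1.96 without replicate 2 and 1.08 without replicate 4 for *Itga2*. That of *Itga4* ran from 1.53 to 2.21 when each library was left out. Their intervals were wide, such as -1.42 to 1.23 for *Itgb1* and -2.87 to 2.32 for *Itgb3*, so a difference of 2-fold was not detectable with these replicates.

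Plasma cell transcripts differed between the experiments in the same direction as *Itga4*. The 6 plasma cell markers made up 0.655% (replicate 1) and 0.839% (replicate 2) of the second experiment's counts but 0.0114% (replicate 3) and 0.0387% (replicate 4) of the first experiment's, and all 6 were higher in the second experiment without overlap. That order held for 14.7% of all tested genes. Total counts were likewise higher in the second experiment, and the share of *Rn45s* was lower, both without overlap. Replicates 1 to 4 had 7233071, 8732858, 5487147 and 3882803 counts, of which *Rn45s* took 11.4%, 7.36%, 28.1% and 21.6%. The part of plasma cells, of total counts or of *Rn45s* in the level of *Itga4* was not tested. As in any bulk sample, more cells with a transcript and more transcript per cell cannot be told apart.

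Within each experiment, by contrast, several of the genes differed by more than 1 log2 unit in the same direction. In TMM-scaled CPM, though not after scaling to T cell markers, *Itgal*, *Itgb2* and *Itgb3* were lower by that much in replicate 2 than in 1 and in replicate 4 than in 3, which held for 3 of the 10 genes and for 8.08% of all tested genes. The log2 differences were -1.24 and -1.60 for *Itgal*, -1.78 and -1.76 for *Itgb2*, and -2.54 and -2.43 for *Itgb3*. The 7 T cell markers were all lower in the same libraries, with median differences of -1.03 and -1.37, and the median of all tested genes was 0.13 and 0.08. Each difference is between 1 library and another, and has no test.

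*Itga2* and *Itgae* were higher in both experiments by over 1 log2 unit, as were 19.0% of the tested genes. The differences were 2.28 and 2.10 for *Itga2* and, on few counts, 1.18 and 2.56 for *Itgae*. Medians of the epithelial markers were 3.45 and 5.29 in the same libraries, and the part of epithelial cells in these levels was not tested. Neither *Itgb1* (-0.04 and -0.55) nor *Itgb7* (-0.34 and -0.65) moved by 1 log2 unit, and *Itga4* was at -0.05 and 0.65. *Itga1* (-3.02 and -0.22) and *Itgav* (-1.18 and -0.29) differed by over 1 unit in the second experiment alone.

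**Figure D3:**
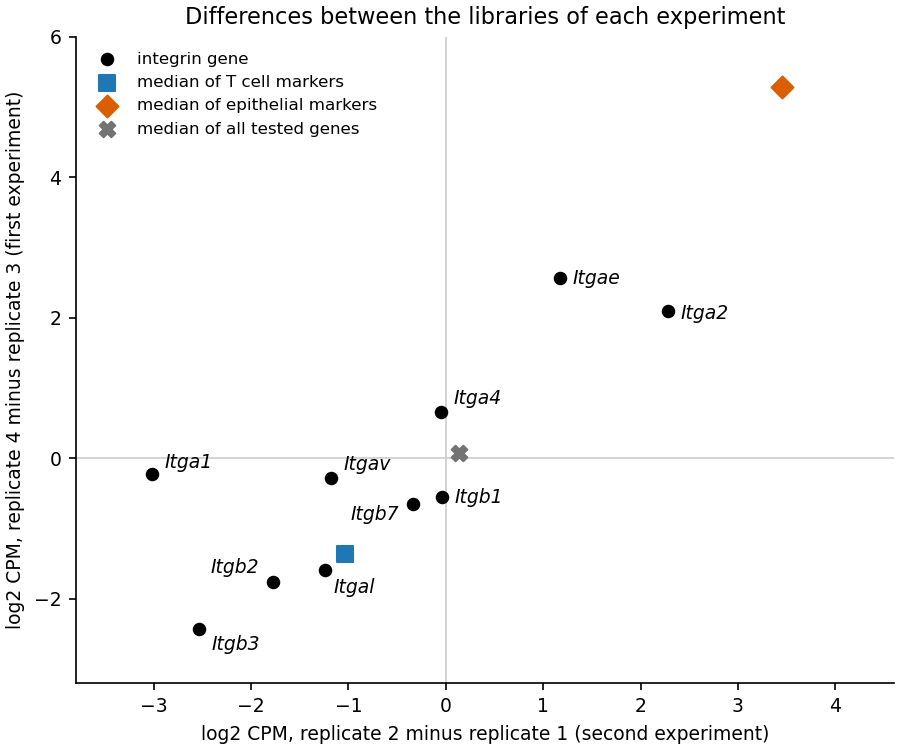
Log2 difference in TMM-scaled CPM between the libraries of the second experiment (horizontal axis, replicate 2 minus 1) and of the first (vertical axis, replicate 4 minus 3) for the 10 integrin genes, with the medians of the T cell markers, the epithelial markers and all tested genes. *Itgal*, *Itgb2* and *Itgb3* lie below -1 on both axes, as the T cell markers do (-1.03 and -1.37), with *Itgb3* farther out at -2.54 and -2.43. *Itga2* and *Itgae* lie above 1 on both, as the epithelial markers do (3.45 and 5.29). Of all tested genes, 8.08% lie below -1 and 19.0% above 1 on both axes. Scaled to the T cell markers, *Itgal* would lie at -0.20 and 0.02, *Itgb2* at -0.74 and -0.15 and *Itgb3* at -1.50 and -0.82.

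The split depended on scaling, and was therefore read against the T cell markers as well. When libraries were scaled to the mean of the T cell markers, the median of all genes itself moved to 1.15 and 1.66 log2 units, and none of the 10 genes was lower by over 1 unit in both experiments, against 1.04% of all tested genes. With library size alone, which moved the median of all genes to 0.39 and 0.41, *Itgb2* and *Itgb3* were lower by that much, as were 4.69% of all genes. On the T cell scale the differences were -0.20 and 0.02 for *Itgal*, -0.74 and -0.15 for *Itgb2*, -1.50 and -0.82 for *Itgb3*, and 1.004 and 1.07 for *Itgb1*. *Itga2* was at 3.32 and 3.71 and *Itgae* at 2.12 and 3.11. These and *Itgb1* were the 3 of the 10 that were higher by over 1 unit in both experiments, against 42.8% of all tested genes on this scale. Relative to the T cell markers, the SD of the log2 level over the 4 libraries dropped from 0.83 to 0.20 for *Itgal*, from 1.02 to 0.43 for *Itgb2* and from 1.45 to 0.70 for *Itgb3*. It went from 0.23 to 0.64 for *Itgb1*, from 0.30 to 0.55 for *Itgb7* and from 1.30 to 2.04 for *Itga2*. Relative to the T cell markers, *Itgal* and *Itgb2* thus varied less than *Itgb1* and *Itgb7*, the reverse of the order in CPM. In all, 4 of the 9 integrin genes detected in every library varied less relative to the T cell markers than in CPM, as did 26.8% of the 10018 tested genes detected in every library.

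For the 3 most abundant genes by TPM, the most similar patterns were sought among 9074 genes with a mean of at least 50 counts, as the root mean square difference of log2 CPM centered on each gene's mean over the 4 libraries. Nearest to *Itgb2* were *Crem* (0.0566), *Hilpda* (0.0569) and *Samsn1* (0.0655), nearest to *Itgal* were *Rdx* (0.0525), *Ppp1r16b* (0.0705) and *Rbms1* (0.0750), and nearest to *Itgb3* were *Gbp8* (0.125), *Zup1* (0.143) and *Spn* (0.153). With 4 libraries many genes come this close. *Itgal* lay at 0.225 from *Itgb2*, its nearest of the 10, and 82 other genes lay nearer to *Itgb2* than that. *Itgb1* and *Itgb7* were the closest pair of the 10, at 0.118.

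Promoters were available for 6 of the 10 genes (*Itga1*, *Itga2*, *Itga4*, *Itgav*, *Itgb1* and *Itgb7*) in the RefSeq sequences of GRCm38.p6. Those of *Itga2*, the gene with the clearest higher level in replicates 2 and 4, and of *Itgb7*, one of the steadiest, are shown here as the 250 bases before the annotated start, from 5′ to 3′ on the strand of the gene (chr13:114932101-114932350 and chr15:102231936-102232185, both on the minus strand). Capitals mark matches to the SMAD box, CAGAC or GTCTG, the motif of the factors of TGF-β signaling.
Itga2: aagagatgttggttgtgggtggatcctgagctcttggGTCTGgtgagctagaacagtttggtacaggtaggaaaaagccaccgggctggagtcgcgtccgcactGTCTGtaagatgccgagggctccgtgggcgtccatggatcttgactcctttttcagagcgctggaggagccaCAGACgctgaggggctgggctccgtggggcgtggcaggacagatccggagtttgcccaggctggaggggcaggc
Itgb7: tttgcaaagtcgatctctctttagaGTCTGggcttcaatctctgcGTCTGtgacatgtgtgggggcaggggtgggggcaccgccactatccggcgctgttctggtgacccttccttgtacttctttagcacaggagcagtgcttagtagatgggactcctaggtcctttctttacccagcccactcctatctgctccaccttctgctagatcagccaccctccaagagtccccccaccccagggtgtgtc

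The SMAD box occurred 3 times in the window of *Itga2* and 2 times in that of *Itgb7*. It also occurred 3 times for *Itgb1*, and 1 time each for *Itga1* and *Itga4*, against 42.2% of all 32851 promoters with at least 1 match in windows of the same length. The RUNX core (TGTGGT or ACCACA) matched only in *Itga4* of the 6, against 14.0% of all promoters, and the GC box (GGGCGG or CCGCCC) in *Itga4* and *Itgb1*, against 32.7%. No match overlapped another. A match says that the letters are in the window and nothing of binding.

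The table held 17 other integrin genes, of which 5 had over 3 counts in all 4 libraries, 8 in some and 4 in none. Of the 17, 8 passed the filter, and edgeR called none of these between experiments, as it called none of all tested genes. By mean TPM, 8 of the 17 were above *Itgae*, but 1 alone, *Itga6*, was above *Itga4*. *Itga6*, a laminin receptor chain, was at 17.9, 110.2, 15.9 and 48.4 TPM. Its epithelial partner *Itgb4* had 7, 320, 31 and 369 counts. *Itga3*, also a laminin receptor chain, was at 13.2, 37.1, 6.78 and 31.2 TPM. All 3 were higher in replicates 2 and 4, together with the epithelial markers described above, whose part was not tested. In TMM-scaled CPM, 5 of the 8 tested were higher by over 1 log2 unit in both experiments and 1 was lower. The shares of all tested genes were 19.0% and 8.08%. Counts of these genes are not given on the T cell scale, where the shares were 42.8% and 1.04%.

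**Figure D4:**
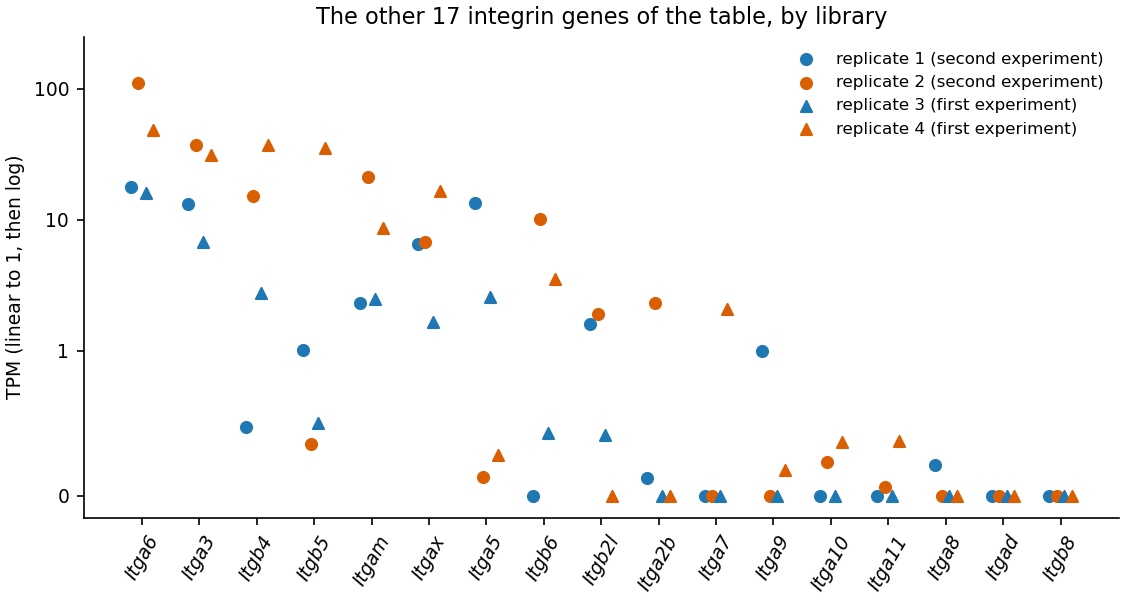
TPM of the other 17 integrin genes in each library (axis linear up to 1 and logarithmic above; blue, replicates 1 and 3; orange, replicates 2 and 4; circles, second experiment; triangles, first experiment). *Itga6*, *Itga3*, *Itgb4*, *Itgam* and *Itgb6* lie higher in both orange libraries. So does *Itgax*, by little in the second experiment (6.81 TPM in replicate 2 against 6.54 TPM in replicate 1). Most genes toward the right lie at or near 0.

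The other partners of β2 were low beside αL. *Itgam* (CD11b) was at 2.31, 21.0, 2.46 and 8.62 TPM, *Itgax* (CD11c) was at 6.54, 6.81, 1.65 and 16.6 TPM, and *Itgad* had 0 counts in all libraries. Both CD11b and CD11c were used to exclude cells during sorting. The 11 myeloid markers, which include *Itgam* and *Itgax*, took 0.00226% to 0.0162% of the counts, with *S100a8*, *S100a9* and *Siglecf* at 0 in every library. *Itgal* was above *Itgam* and *Itgax* in each library. Of the remaining genes above *Itgae* by mean TPM, *Itgb5* was at 35.2 TPM in replicate 4 and at most 1.014 TPM in the others, and *Itga5*, a fibronectin receptor chain, was at 13.4 TPM in replicate 1 and at most 2.58 TPM in the others, so that 1 library sets each mean. *Itgb6* was at 0, 10.03, 0.430 and 3.52 TPM.

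Genes that activate integrins or link them to the cytoskeleton were broadly detected. Of 28 such genes, 23 had over 3 counts in all libraries and 27 passed the filter, with a median TPM percentile of 81.9. None was called between experiments by edgeR. *Rap1a*, named after its value was seen, was the only one of the 27 tested with an unadjusted p under 0.05 by edgeR. So low a p was found for 2.12% of all tested genes, and the adjusted p of *Rap1a* was 0.9997. Its level was at 536, 180.0, 89.8 and 88.7 TPM. The most abundant by mean TPM were *Rap1b*, a small GTPase that switches integrins on, at 550 ± 270 TPM, *Slc3a2*, the CD98 heavy chain that binds beta chain tails, at 418 ± 153 TPM, and *Stk4*, a kinase on the path from RAP1 to LFA-1, at 289 ± 132 TPM. Outside the rule for named genes and chosen after their values were seen, *Tln1* (talin) was at 113 ± 41.4 TPM and *Fermt3* (the kindlin of blood cells) at 71.3 ± 29.2 TPM. The kindlin of epithelial cells, *Fermt1*, had 16, 991, 3 and 325 counts and was thus low in replicates 1 and 3. In TMM-scaled CPM, 10 of the 27 were lower by over 1 log2 unit in both experiments and 6 were higher. The shares of all tested genes given above were 8.08% and 19.0%. Counts of this list are not given on the T cell scale, where these shares were 1.04% and 42.8%.

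Of 12 genes for integrin ligands, 5 had over 3 counts in all libraries and 7 passed the filter. Of these 7, edgeR called none between experiments, as it called none of all tested genes. *Cdh1* was the highest by mean TPM, at 72.6, 514, 4.96 and 296.7 TPM. *Icam1*, which encodes the ligand of LFA-1, was at 168, 118, 261 and 67.5 TPM and so was present in every library. *F11r*, for the adhesion molecule JAM-A, was at 39.7, 167, 3.32 and 156 TPM. *Madcam1*, for the ligand of α4β7, had 0 counts in all 4 libraries, and *Vcam1*, for that of α4β1, had 1, 115, 0 and 0 counts.

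Of 8 genes that act with integrins in homing and retention, 6 passed the filter, and none was called between experiments. *Rara*, a retinoic acid receptor gene named after its value was seen, alone of the 6 had an edgeR unadjusted p under 0.05. So did 2.12% of all tested genes, and the adjusted p of *Rara* was 0.9997. Its level was at 21.6, 56.0, 174.7 and 76.2 TPM. *Ccr9*, the chemokine receptor that directs lymphocytes to the small intestine, was the highest, at 709, 210.1, 435 and 179 TPM. *Runx3*, a transcription factor of tissue-resident lymphocytes, was at 181, 56.5, 375 and 82.0 TPM, and *Tgfbr2*, a TGF-β receptor chain, at 136, 38.4, 116 and 71.0 TPM. In TMM-scaled CPM, 2 of the 6 tested were lower by over 1 log2 unit in both experiments and 1 was higher. The shares of all tested genes were 8.08% and 19.0%. *Ccr9*, *Runx3* and *Tgfbr2* each had a higher TPM in replicates 1 and 3 than in the other library of the same experiment, as the T cell markers were. Transcripts of *Ccr9* and *Itgb7* were thus present in each library in which *Itgae* was at most 3.06 TPM.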

How the data were processed

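RNA-seq was done on 4 libraries of SI-LP NKT cells, made by the authors with an ultralow-input kit. According to the paper and the file header, the authors aligned read pairs with HISAT2 and deposited raw counts per gene from featureCounts 1.6.4 (primary alignments on exons, no strand). Per the labels, RSEM and Bowtie2 were also used; their role is not stated. The deposited exon lengths are another column, used for TPM. The methods name GRCm39, but 98.9% of 24965 matched genes overlap their GRCm38.p6 position, so coordinates are on GRCm38. The methods name a NovaSeq and the labels a HiSeq. The table holds 2 library columns that match no label, which were not used.

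Each sample's group and replicate came from its title, and so did the word First or Second, here called the experiment. CPM used edgeR's TMM factors, and log2 CPM a prior count of 2. Genes that had 10 or more counts in 2 or more libraries were tested with edgeR's quasi-likelihood test. On simulated counts with known changes, the test recovered most of them at a small replicate spread but not at a large one. The small spread was below that of each of the 10 genes, so the recovery there does not apply to them. Both experiments hold the same condition, so a difference between them holds batch and cell composition as well as replicate error. T cell scaling used *Cd3d*, *Cd3e*, *Cd3g*, *Cd247*, *Lck*, *Lat* and *Cd2*. Coding lengths came from GENCODE vM39.

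The 10 genes and all lists were chosen with earlier results of these data known. Named were the 10 genes, other integrin genes with a mean TPM above the lowest of the 10, *Itgam*, *Itgax*, *Itga6*, *Itgb4*, *Itga2b*, the 3 highest genes of each pathway list by mean TPM, *Cdh1*, *Madcam1*, *Vcam1*, *Icam1*, the genes nearest in pattern to the 3 most abundant of the 10, and any list gene called between experiments. Marker lists not described above took at most 0.00703% (B cell), 0.0138% (stromal and endothelial) and 0.00752% (mast cell) of the counts. Analyses ran in R 4.3.3 (DESeq2 1.42.0, edgeR 4.0.16, limma 3.58.1) and, for the rest, in Python 3.11.15 with scipy 1.17.1, pandas 2.3.3, matplotlib 3.10.9 and numpy 2.4.6.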

Additional observations from a re-analysis of the deposited data

Results flagged for a closer look

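In 45 results (levels, ratios and marker shares over the 4 libraries), 4 had 1 library whose gap to the nearest other, as a share of the range, exceeded Dixon's 95% limit for 4 values, where chance gives about 1 in 20. *Itgav* was high in replicate 1, at 170.2 CPM against 64.6 to 78.8 CPM in the others, a gap of 0.866 of the range. *Itga2b* (2.60 CPM) and *Vcam1* (11.1 CPM) were high in replicate 2 and at most 0.139 CPM in the others, with gaps of 0.946 and 0.987. *Itgb5* was high in replicate 4, at 46.9 CPM against 0.385 to 1.11 CPM, with a gap of 0.984.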

How the results depend on the processing

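The number of genes called between experiments was 0 with TMM, median-of-ratios, library-size and T cell marker scaling and with 10 counts required in all 4 libraries, but 60 of 16223 without a filter on low counts and 48 with DESeq2, and it ran from 0 to 7 when 1 replicate was left out (7 without replicate 3, 6 without replicate 4). None of the integrin genes tested was called in any of these settings (10 genes, or 9 where *Itgae* had no adjusted p, which was with 10 counts in all 4 libraries, without replicate 1, without replicate 2 and with DESeq2), and a fit with 1 library in an experiment assumes that it varies like the others. *Itga4* had an unadjusted p of 0.0172 to 0.193 over the settings and an adjusted p of 0.546 or more. Of the 10 places in the order of mean TPM, 2 held in CPM without a length, 4 with GENCODE coding lengths, 3 to 8 with 1 replicate left out (3 without replicate 1, 6 without replicate 3), 6 in replicates 1 and 3 alone and 3 in replicates 2 and 4 alone. The coding-length and library-pair settings were chosen after seeing the data. Of 7 chain pairs with a value in every library, 1 had a mean log2 ratio above 0, and 0 in replicates 1 and 3 alone, because *Itgal* over *Itgb2* changed sign there. The number of integrin genes lower in both experiments was 3 (8.08% of all tested genes), 0 with T cell marker scaling (1.04%) and 2 with library size alone (4.69%). Single libraries moved mean CPM by over 1.5 times for *Itga1* (78.3 to 48.2 without replicate 1) and *Itgae* (1.72 to 1.02 without replicate 2), and in replicates 1 and 3 alone *Itga2* was at 31.5 in place of 87.7 and *Itgb3* at 853 in place of 503. Coding lengths from RefSeq proteins were planned and not run, since that table was not used here. No paired analysis was possible because only 1 group exists, so replicate numbers pair nothing. With 2 libraries an experiment and a biological coefficient of variation of 0.51 to 1.43 for these genes, replicate spread limits the comparison, and low counts add to it for *Itgae*.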
